A study of Mus musculus with 15 samples.

Results

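In the TER119 positive fraction of fetal liver from Klf3 knockout embryos, both genes of 5 pairs were higher than in wild type. The genes of each pair were neighbours on a chromosome among the genes measured. The pairs were Unc13d and Wbp2, Plec and Parp10, Setd4 and Cbr1, Ehbp1l1 and Fam89b, and Prune2 and Gcnt1, 10 of the 19938 genes measured. They were chosen because both genes of each pair passed the test for a rise in TER119 positive cells. Of all adjacent measured pairs 12 passed in those cells, and the pairs not taken are named below. The rises in those cells are therefore given as a description, and what was tested is how the genes behaved elsewhere.

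Fetal livers were taken from FVB/NJ mice at E14.5, the embryonic day of the labels. Their cells were separated on magnetic beads against TER119, an antigen that red cell precursors acquire as they mature. There were 4 arrays of wild-type (WT) TER119- cells, 4 of Klf3 knockout (KO) TER119- cells, 4 of WT TER119+ cells and 3 of KO TER119+ cells. All 4 groups share the strain and stage, and no treatment or further allele is named. It is not stated in the labels what portion of Klf3 was deleted, or whether an array holds 1 embryo or a pool. The p-values therefore cover the spread among the samples at hand, and that spread may be technical.

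KLF3 is a zinc finger protein that binds CACCC-type sequences and recruits corepressors, so that genes it occupies tend to be held down. KLF1, an activator of red cell genes, drives its expression in red cell precursors. Neighbouring genes can share regulatory DNA, and a repressor bound near both may affect both.

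On these arrays the probe set of Klf3 did not separate the genotypes: the KO minus WT difference was 0.24 on the log2 scale (SE 0.20) in TER119+ cells and -0.04 (SE 0.19) in TER119- cells. The genotype is thus known from the labels alone, hence the term KO-labelled below. Klf8, Lgals3 and C1qtnf12, genes that KLF3 is known to repress, rose in KO-labelled TER119+ cells by 3.06, 2.94 and 3.34 (adjusted p of 3.36e-09 or less, limma). All 9 measured erythroid markers were higher in WT TER119+ than in WT TER119- arrays, but so were all 13 hepatocyte-lineage markers, so RNA of hepatocyte-lineage genes was present in the positive fraction too. Arrays of the same group correlated at 0.965 to 0.992.

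Sequences upstream of the members are shown because the pairs lie side by side and KLF3 recognises CACCC-type motifs. The RefSeq promoter table (build GRCm38.p6) held 9 start sites for 6 of the 10 genes: Wbp2, Setd4, Cbr1, Ehbp1l1, Prune2 and Gcnt1. The 250 bases before each start were searched on both strands for CCNCNCCC, the core of the KLF recognition motif, and for the shorter CACCC, which can overlap it. Capitals mark CCNCNCCC or its reverse complement. The sequences run from 5′ to 3′ on the strand of the gene.

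Setd4 and Cbr1 run apart from neighbouring starts on chromosome 16, and the listed starts are 4022 bases from each other. The upstream windows of this pair are chr16:93603816-93604065 (minus strand) for Setd4 and chr16:93607587-93607836 (plus strand) for Cbr1. Each held 2 matches to CCNCNCCC, and that of Cbr1 also held 1 CACCC. It was the only one of the 9 windows with AGATAA, a motif of GATA factors that 9.99% of all windows in the table held on either strand.
Setd4: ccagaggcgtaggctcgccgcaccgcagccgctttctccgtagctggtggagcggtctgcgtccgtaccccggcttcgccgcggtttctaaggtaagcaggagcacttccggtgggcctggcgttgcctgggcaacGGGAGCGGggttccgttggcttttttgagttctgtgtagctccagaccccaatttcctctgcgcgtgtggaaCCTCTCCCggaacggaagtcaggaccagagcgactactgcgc
Cbr1: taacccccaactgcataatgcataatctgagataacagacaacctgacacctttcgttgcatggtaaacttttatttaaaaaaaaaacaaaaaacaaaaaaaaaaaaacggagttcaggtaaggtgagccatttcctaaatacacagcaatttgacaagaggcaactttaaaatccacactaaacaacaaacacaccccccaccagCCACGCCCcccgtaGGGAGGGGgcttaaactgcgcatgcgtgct

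Prune2 and Gcnt1 run towards each other on chromosome 19, so that their listed starts lie at the outer ends of the pair. The first listed start of Gcnt1 lies 416726 bases from that of Prune2. The windows shown are chr19:16955868-16956117 (plus strand) for Prune2 and chr19:17356668-17356917 (minus strand) for the second of the 3 listed starts of Gcnt1. Each held 2 matches to CCNCNCCC, while the windows of the other 2 Gcnt1 starts held 0.
Prune2: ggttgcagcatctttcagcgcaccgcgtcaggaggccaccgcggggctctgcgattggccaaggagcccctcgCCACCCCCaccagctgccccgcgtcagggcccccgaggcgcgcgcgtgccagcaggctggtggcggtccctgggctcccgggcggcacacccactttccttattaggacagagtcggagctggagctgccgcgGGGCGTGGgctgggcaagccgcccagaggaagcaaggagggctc
Gcnt1, second start: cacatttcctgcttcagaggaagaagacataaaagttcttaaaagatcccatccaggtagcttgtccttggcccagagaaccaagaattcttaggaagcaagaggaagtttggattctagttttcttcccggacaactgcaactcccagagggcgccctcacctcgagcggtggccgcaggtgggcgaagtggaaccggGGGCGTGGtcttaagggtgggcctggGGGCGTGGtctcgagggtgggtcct

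For the other pairs the table gave a start for Wbp2 at chr11:116086996-116087245 (minus strand), with 2 matches to CCNCNCCC. It gave 2 overlapping windows for Ehbp1l1, of which the first, chr19:5726318-5726567 (minus strand), held 3 matches and 4 CACCC.
Wbp2: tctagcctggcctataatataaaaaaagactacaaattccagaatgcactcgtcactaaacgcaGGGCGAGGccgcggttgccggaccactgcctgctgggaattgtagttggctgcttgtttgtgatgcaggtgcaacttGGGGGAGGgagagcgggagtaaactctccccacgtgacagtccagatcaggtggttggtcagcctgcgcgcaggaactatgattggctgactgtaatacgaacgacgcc
Ehbp1l1, first start: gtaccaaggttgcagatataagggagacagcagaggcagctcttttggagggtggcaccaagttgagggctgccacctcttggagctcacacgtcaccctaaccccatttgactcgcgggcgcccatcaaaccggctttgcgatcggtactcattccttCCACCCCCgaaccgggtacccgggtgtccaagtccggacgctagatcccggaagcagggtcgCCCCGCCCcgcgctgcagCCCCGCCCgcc

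In all, 7 of the 9 windows and all 6 of the 6 genes held CCNCNCCC at 1 start or more. The motif is frequent: 45.9% of the table's 32851 windows of the same length held it, and 52.0% held CACCC, which was present for 4 of the 6 genes. These shares are per window, whereas a gene could match at any of its starts, and no share per gene was computed. The GC content of the 9 windows ran from 40.4% to 72.0%, and base composition was not matched. A match describes letters in the window and does not show binding.

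Setd4 and Cbr1 formed the pair in which both genes were far higher. Setd4 encodes a SET-domain methyltransferase, and Cbr1 encodes carbonyl reductase, an NADPH-dependent enzyme that reduces quinones, prostaglandins and other carbonyls. In TER119+ cells Setd4 stood at 7.60, 7.34 and 7.37 in KO-labelled arrays against 5.17, 5.24, 5.40 and 5.34 in WT arrays. Cbr1 stood at 8.68, 8.70 and 8.71 against 6.15, 6.42, 6.05 and 6.47. The groups lay far apart for both genes. The difference was 2.15 (SE 0.10) for Setd4, a 4.43-fold higher signal, and 2.43 (SE 0.15) for Cbr1, or 5.37-fold. In WT arrays Setd4 lay near the median of all probe sets, 5.37 to 5.39. No presence calls were used, so its fold is one of signal above a dim WT level.

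Prune2 and Gcnt1 were both higher but by unequal amounts. Prune2 encodes a protein with a BCH domain, and Gcnt1 encodes the enzyme that starts core 2 branches on O-linked sugar chains, which carry selectin ligands. Prune2 stood at 7.63, 7.52 and 7.44 in KO-labelled TER119+ arrays against 5.17, 4.98, 5.21 and 5.08 in WT ones. For Gcnt1 the values were 8.36, 8.52 and 8.53 against 7.76, 7.57, 7.92 and 7.55. The groups did not overlap for either gene, with differences of 2.42 (SE 0.19) for Prune2 and 0.77 (SE 0.12) for Gcnt1, which are 5.36-fold and 1.71-fold. The WT values of Prune2 lay below the median of all probe sets, 5.37 to 5.39, so its fold too starts from a dim level.

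Prune2 is the only member with a second probe set, and the probe sets disagreed. On the other probe set Prune2 stood at 4.17, 4.51 and 4.22 in KO-labelled and at 4.29, 4.52, 4.16 and 4.44 in WT TER119+ arrays, and the groups overlapped. The difference there was -0.05 (SE 0.16), against 2.42 on the probe set kept. In TER119- cells this second probe set averaged 4.55 ± 0.33 (SD, n = 4) in KO-labelled arrays, against 4.64 ± 0.18 (n = 4) in WT arrays. On every array the second probe set stood between 4.12 and 4.89, below the array medians of 5.28 to 5.43. Whether it registered any Prune2 RNA is not known. Which exons each probe set covers was not analysed here, and no presence calls were used, so the higher signal is known for 1 of the 2 probe sets of the gene.

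**Figure D1:**
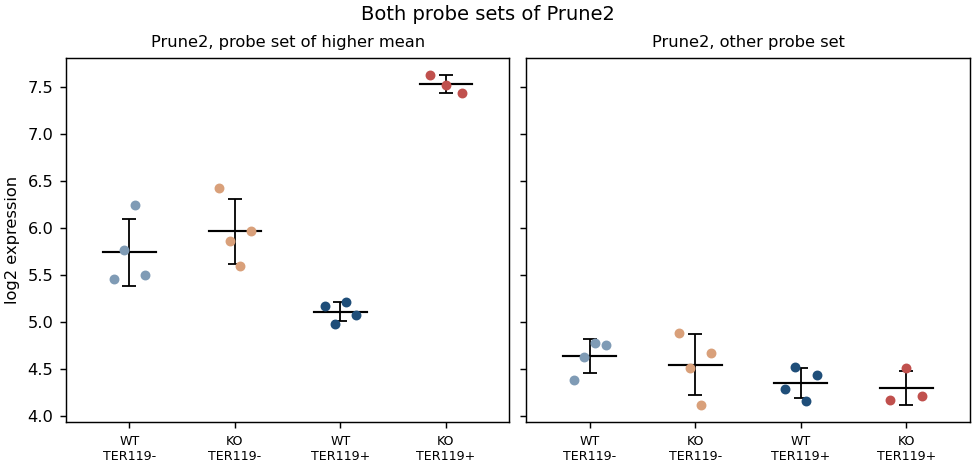
Log2 expression of the probe set of Prune2 kept for the analysis (left) and of its other probe set (right), 1 point per array, with the mean and SD of each group. The left panel shows KO-labelled TER119+ arrays between 7.44 and 7.63 above all others, while the right panel shows overlapping groups around 4.30 to 4.64.

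Unc13d and Wbp2 formed the third pair. Unc13d encodes Munc13-4, which primes secretory granules for release in lymphocytes and platelets, and Wbp2 encodes a transcriptional coactivator that binds WW-domain proteins such as YAP. Unc13d stood at 7.33, 7.12 and 7.42 in KO-labelled TER119+ arrays against 6.27, 6.05, 6.06 and 5.84 in WT arrays. Wbp2 stood at 9.11, 9.27 and 9.21 against 8.59, 8.51, 8.43 and 8.72. For both genes the KO-labelled arrays lay above all WT arrays. The difference was 1.24 (SE 0.13) for Unc13d and 0.64 (SE 0.13) for Wbp2.

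Ehbp1l1 and Fam89b lie on chromosome 19 as well, far from Prune2. Ehbp1l1 encodes a Rab8 effector of membrane traffic, and Fam89b an adaptor linked to actin regulation. The values of Ehbp1l1 were 9.45, 9.40 and 9.45 in KO-labelled TER119+ arrays and 9.01, 8.84, 8.94 and 8.71 in WT ones. Those of Fam89b were 8.36, 8.01 and 8.11 against 7.21, 7.18, 7.24 and 7.10. Neither gene's groups overlapped, and the differences were 0.56 (SE 0.12) and 0.98 (SE 0.12).

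Plec and Parp10 had 1 annotated gene between them, which was not among those measured, whereas the genes of the other pairs were direct neighbours. Plec encodes plectin, a giant linker of intermediate filaments, actin and microtubules, and Parp10 a transferase that adds single ADP-ribose units. Plec stood at 6.64, 6.47 and 6.86 in KO-labelled TER119+ arrays against 6.01, 6.25, 5.89 and 6.26 in WT arrays. Parp10 stood at 6.03, 6.09 and 6.11 against 5.49, 5.59, 5.41 and 5.37. The groups did not overlap, though the gap was narrow for Plec. The differences were 0.55 (SE 0.12) and 0.61 (SE 0.09), or 1.47-fold and 1.53-fold.

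**Figure D2:**
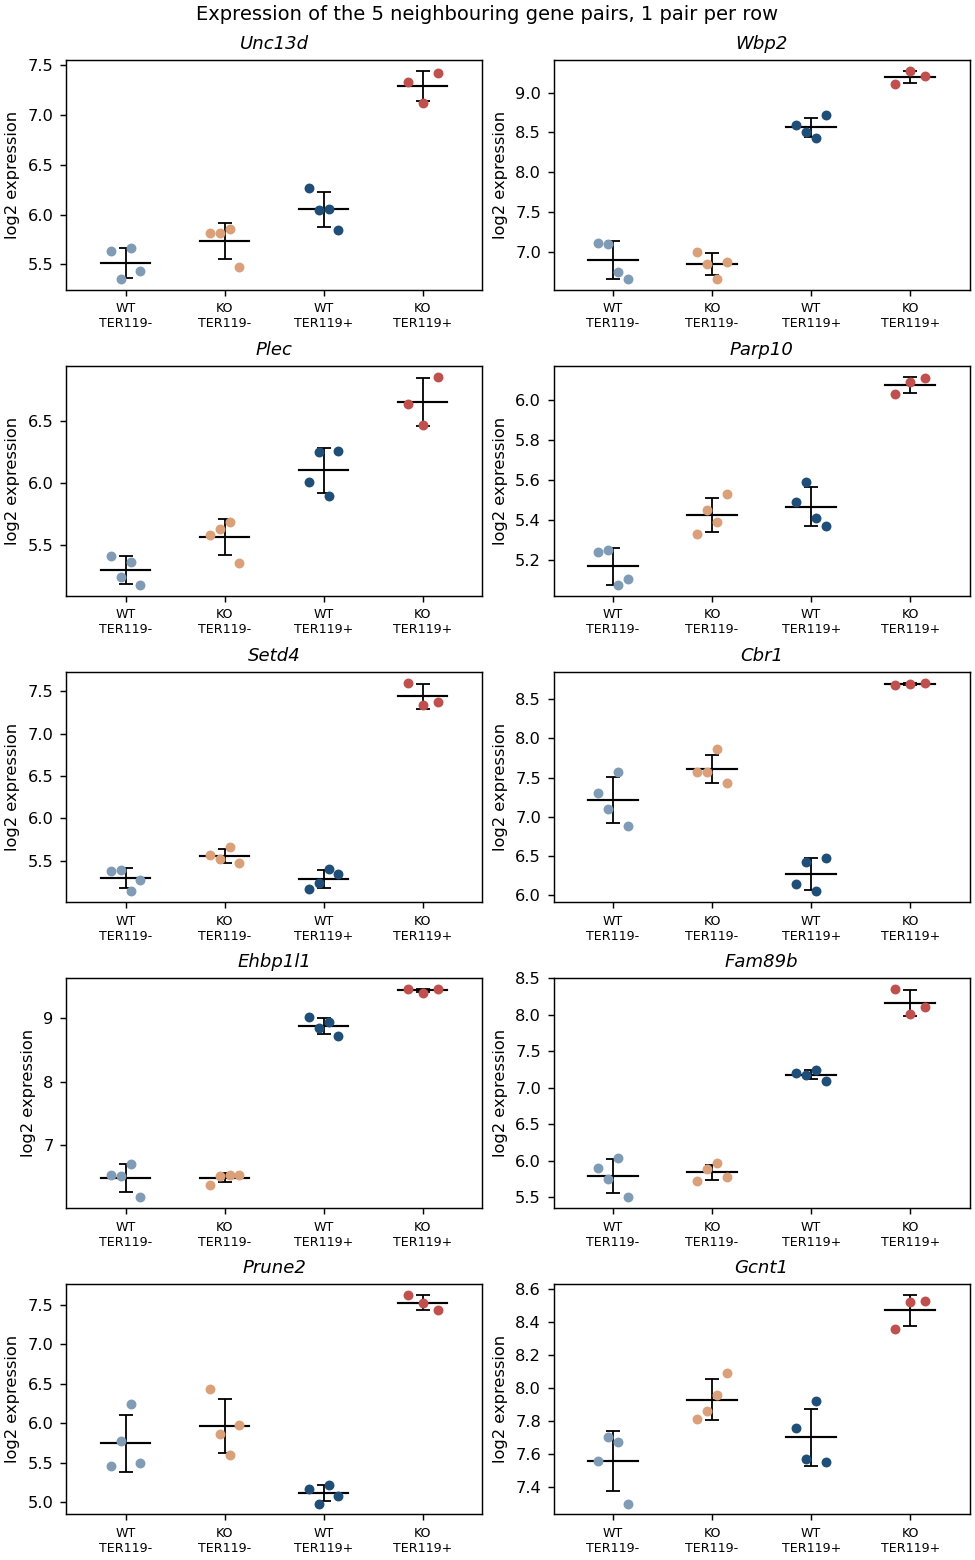
Log2 expression of the 10 genes on each of the 15 arrays, 1 pair per row, with the mean and SD of each group (4 arrays, or 3 for KO TER119+); axes differ between panels and do not start at 0. KO-labelled TER119+ arrays lie above WT TER119+ arrays in every panel, from 5.37-fold for Cbr1 to 1.47-fold for Plec and Ehbp1l1.

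All 10 genes were higher in KO-labelled TER119+ cells because the choice required it. The same test called 1.02% of all genes, 0.903% of all being higher, and the KO-labelled arrays lay wholly above the WT arrays for 10 of 10 members and for 5.29% of all genes. Along the chromosomes 19853 measured genes formed 19831 adjacent pairs, of which 12 held 2 genes called higher in these cells and 0 held 2 genes called lower. Far fewer single genes were called lower, 23 of all genes against 180 called higher. The remaining 7 of the 12 pairs were Rragd-Ube2j1, Fam114a2-Mfap3, Rsad2-Cmpk2, Cd59b-Cd59a, Lilr4b-Lilrb4a, Mir144-Mir451a and Crip2-Crip1, several of which are copies of each other or share a transcript. Plec-Parp10 was the pair just inside the threshold, with Plec at an adjusted p of 0.0432 (limma, Benjamini-Hochberg over all genes). Rtn4-Eml6 was just outside it, with differences of 0.51 and 0.46 and an adjusted p of 0.0681 for Eml6. Of 28 other settings, 11 put Plec past the threshold, 20 Ehbp1l1 and 24 Wbp2. The other 7 genes passed in all 28, except that Prune2 failed when its other probe set was used. Without KO TER119+ replicate 3 the adjusted p of Plec was 0.313, that of Ehbp1l1 0.125 and that of Wbp2 0.0808.

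Marker levels of other cells were set beside these differences. In TER119+ cells the mean of the erythroid markers ran from 11.48 to 11.53 in KO-labelled and from 11.43 to 11.59 in WT arrays, and 0 of 9 were called. The 6 measured megakaryocyte and platelet markers had a median difference of -0.72, with array means of 8.61 to 8.92 against 9.30 to 9.67, and 0 were called. Of 12 macrophage markers Vsig4 fell (-1.21, adjusted p = 0.000491, limma), and the array means were 7.54 to 7.70 against 7.61 to 7.92. Hepatocyte-lineage, neutrophil, lymphoid, endothelial and stromal lists held 0 calls and their array means overlapped between the genotypes. By Xist and Y-linked genes the WT TER119+ arrays were 2 female and 2 male, and the KO-labelled ones 2 female and 1 male. The part of these features in the differences was not tested.

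The genes around the pairs were examined next, to see whether the higher signal extended along the chromosome. Among the 50 measured genes that lay within 5 places of a pair, 1 rose in KO-labelled TER119+ cells and 0 fell, where 0.903% and 0.115% of all genes did. Their median difference was -0.021, against -0.0097 for all genes, and 17 of the 50 were above 0, where 47% of all genes were. None of the 10 genes directly beside a pair was called (limma). Of these, Foxb2, Cbr3, Kcnk7, Eppk1 and Trim47 averaged 4.32 to 5.18 in TER119+ cells, below the array medians of 5.37 to 5.4. Unk, Grina, Runx1, Rfk and Znrd2 lay above those medians. No presence calls were used, and a gene without expression would give a difference near 0 too.

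The gene that rose was Nrbp2, which encodes a pseudokinase and lies beyond Plec, with Eppk1 between them. It averaged 5.52 ± 0.08 (SD, n = 3) in KO-labelled TER119+ arrays, against 4.85 ± 0.26 (n = 4) in WT arrays, a difference of 0.67 (SE 0.13, adjusted p = 0.014, limma). Leaving out any of the 3 KO TER119+ replicates, or WT TER119+ replicate 1 or 3, ended the call of Nrbp2. Eppk1, which encodes the plakin epiplakin, did not pass (-0.25, SE 0.14, adjusted p = 1). On the far side of Parp10, Grina, which encodes a membrane protein linked to cell survival, differed by 0.37 (SE 0.23, adjusted p = 1) with groups that did not overlap. With 10 genes on each side a second gene was called, Trpm6, a magnesium channel gene 7 places beyond Gcnt1, at 1.03 (SE 0.16, adjusted p = 0.00152).

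Next to Setd4 and Cbr1 lay Runx1, a regulator of blood formation, and Cbr3, a close relative of Cbr1. Neither passed in TER119+ cells: Runx1 differed by -0.38 (SE 0.19) and Cbr3 by -0.12 (SE 0.13), each with an adjusted p of 1. Cbr3 stood at 4.42 ± 0.13 (SD, n = 3) in KO-labelled arrays, against 4.54 ± 0.18 (n = 4) in WT arrays. Around the Prune2 pair, Foxb2 differed by -0.06 and Rfk, the riboflavin kinase gene, by -0.30 (adjusted p = 0.931). Unk (-0.10) and Trim47 (0.03) bounded Unc13d and Wbp2, and Kcnk7 (-0.02) and Znrd2 (0.14) bounded Ehbp1l1 and Fam89b, each with an adjusted p of 1. In TER119- cells 0 of the 50 flanking genes passed (limma) and their median difference was 0.048.

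**Figure D3:**
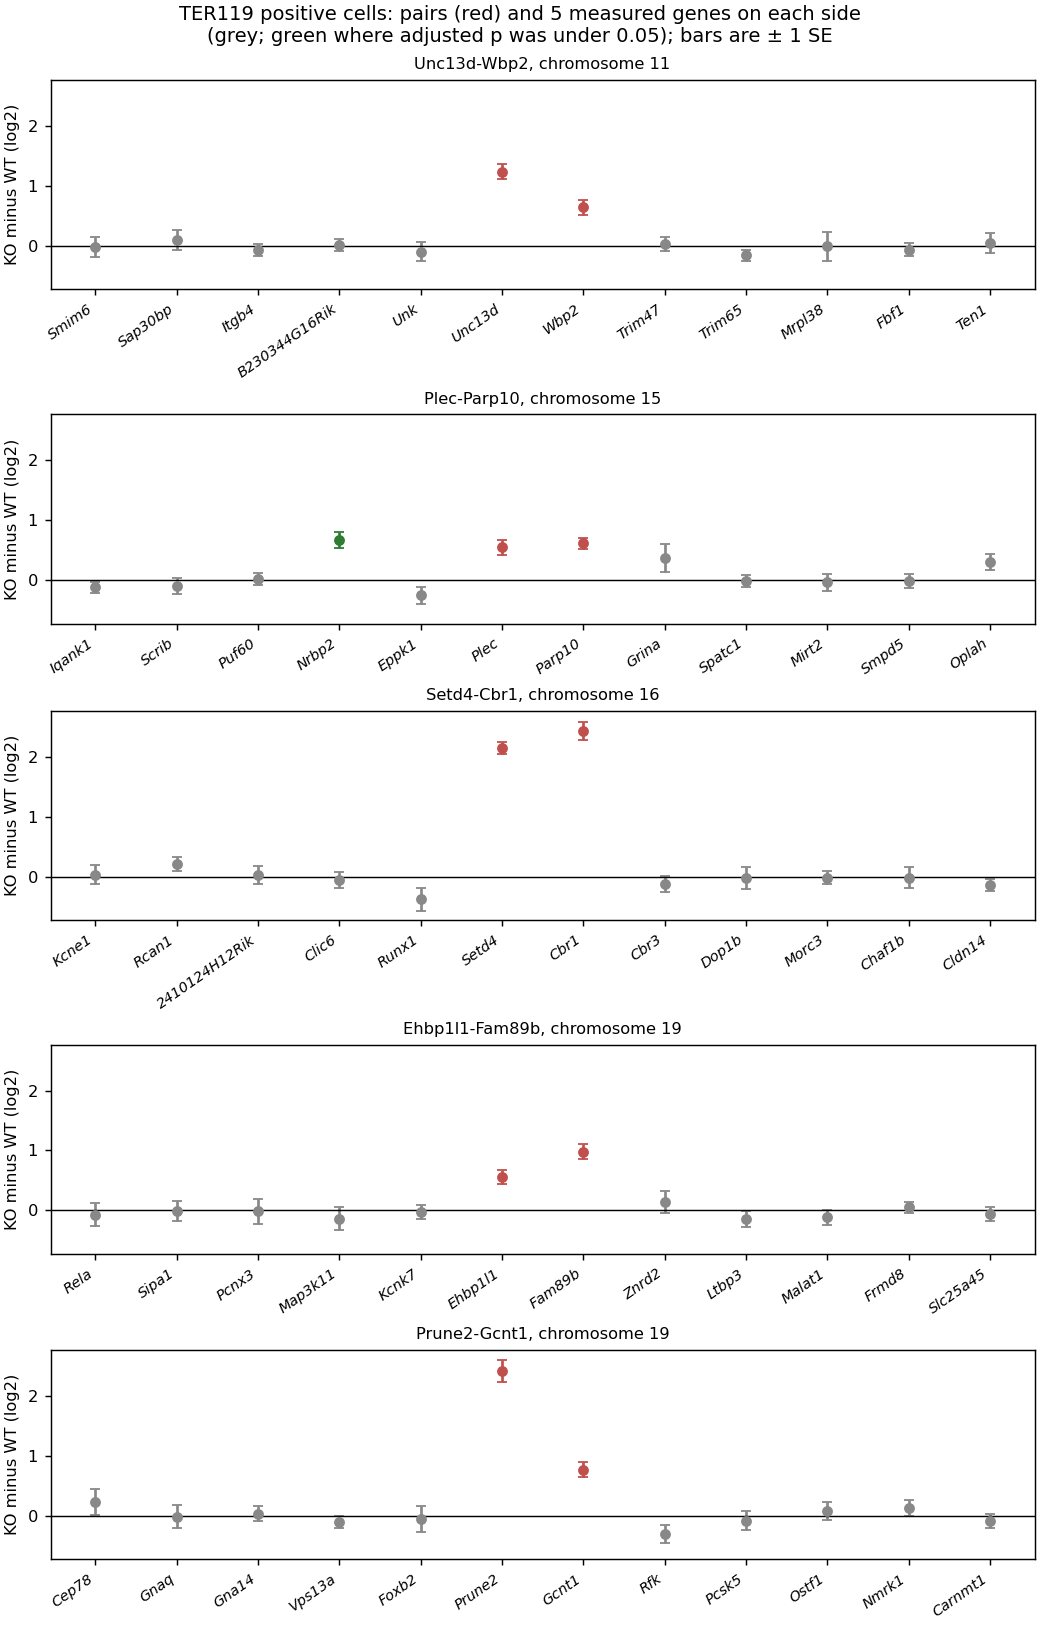
KO minus WT difference (log2, with SE) in TER119+ cells for each pair (red) and the 5 measured genes on each side, in chromosome order and without distances. Grey genes did not pass the test and green marks Nrbp2; the flanking genes ran from -0.38 to 0.67.

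The KO minus WT difference in TER119- cells played no part in choosing the genes. The TER119- arrays did enter the estimate of spread and the choice of probe set behind the TER119+ test. With only the TER119+ arrays fitted, 9 of the 10 were called in TER119+ cells. In TER119- cells none of the 10 passed: 0 were called by limma, where 0.0853% of all genes were (0.0752% higher). There, 5, all higher, had an unadjusted p under 0.05, as had 3.73% of all genes. That count of 5 was 3 without KO TER119- replicate 3 or without WT TER119- replicate 4. Of the 10 differences 9 were above 0, against 46.2% of all genes, with a median of 0.24 compared with -0.0161 over all genes. In bulk samples such as these, fewer cells of a type and less RNA per cell cannot be told apart.

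Gcnt1 and Parp10 had the smallest p-values in TER119- cells. Gcnt1 stood at 7.81, 7.86, 7.96 and 8.09 in KO-labelled arrays against 7.56, 7.70, 7.67 and 7.30 in WT arrays, a difference of 0.37 (SE 0.11, adjusted p = 0.615, limma). Parp10 stood at 5.33, 5.45, 5.39 and 5.53 against 5.24, 5.25, 5.07 and 5.10 (0.26, SE 0.08, adjusted p = 0.622, limma). Setd4 stood at 5.57, 5.52, 5.66 and 5.47 against 5.38, 5.39, 5.14 and 5.28 (0.26, SE 0.09, adjusted p = 0.644, limma). For these 3 genes every KO-labelled array was above every WT array, which held for 1.22% of all genes. Parp10 and Setd4 lay near the median of all probe sets, 5.28 to 5.43 in WT and 5.28 to 5.37 in KO-labelled TER119- arrays. No presence calls were used. For 0 of the 10 did the KO-labelled arrays lie wholly below, against 1.41% of all genes.

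Cbr1 and Plec were the other members under an unadjusted p of 0.05. Cbr1 stood at 7.57, 7.57, 7.86 and 7.43 in KO-labelled TER119- arrays and at 7.31, 7.10, 7.57 and 6.88 in WT ones (0.39, SE 0.14, adjusted p = 0.644, limma). For Plec the values were 5.58, 5.63, 5.68 and 5.35 against 5.41, 5.24, 5.36 and 5.17 (0.27, SE 0.12, adjusted p = 0.653, limma). In both genes the groups overlapped. In Unc13d and Prune2 the groups overlapped too, with differences of 0.22 (SE 0.12) and 0.22 (SE 0.17). The value of Prune2 ran from 0.068 without KO TER119- replicate 1 to 0.389 without WT TER119- replicate 3, and was 0.345 without KO TER119- replicate 3, 0.131 without WT TER119- replicate 1 and 0.142 without WT TER119- replicate 4. Wbp2, Ehbp1l1 and Fam89b lay within 1 SE of 0, with differences of -0.05 (SE 0.12), 0.01 (SE 0.11) and 0.04 (SE 0.12). The difference between the populations was not tested, since the genes were chosen on the TER119+ values.

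Inferred sex was unbalanced between the genotypes in the TER119- arrays, and marker means were compared as well. By Xist and 3 Y-linked genes the 4 WT arrays were male, while 3 KO-labelled arrays were female and 1 was male. The mean of the erythroid markers ran from 8.28 to 8.93 in KO-labelled and from 7.96 to 8.56 in WT arrays, and that of the hepatocyte-lineage markers from 5.86 to 7.48 and from 6.07 to 8.58. Both ranges overlapped between the genotypes. The median KO minus WT difference was 0.33 over 9 erythroid and -0.87 over 13 hepatocyte-lineage markers, and 0 were called (limma). With the hepatocyte-marker mean as a covariate 2 of the 10 genes had an unadjusted p under 0.05, Gcnt1 (0.34) and Parp10 (0.23), and 7 of 10 differences were above 0. With the inferred sex as a covariate 3 of the 10 genes kept an unadjusted p under 0.05, namely Gcnt1 (0.34, SE 0.14), Setd4 (0.31, SE 0.11) and Parp10 (0.27, SE 0.11). With the erythroid-marker mean as a covariate, a setting chosen after seeing the data, Gcnt1 alone did (0.27, SE 0.13), and Cbr1 was at 0.16 (SE 0.13) in place of 0.39. Leaving out 3 TER119- arrays that stood apart from the rest, also chosen after seeing the data, left 2 under an unadjusted p of 0.05, Setd4 (0.32, SE 0.11) and Parp10 (0.23, SE 0.10), with Gcnt1 at 0.26 (SE 0.12) and Cbr1 at 0.23 (SE 0.14).

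**Figure D4:**
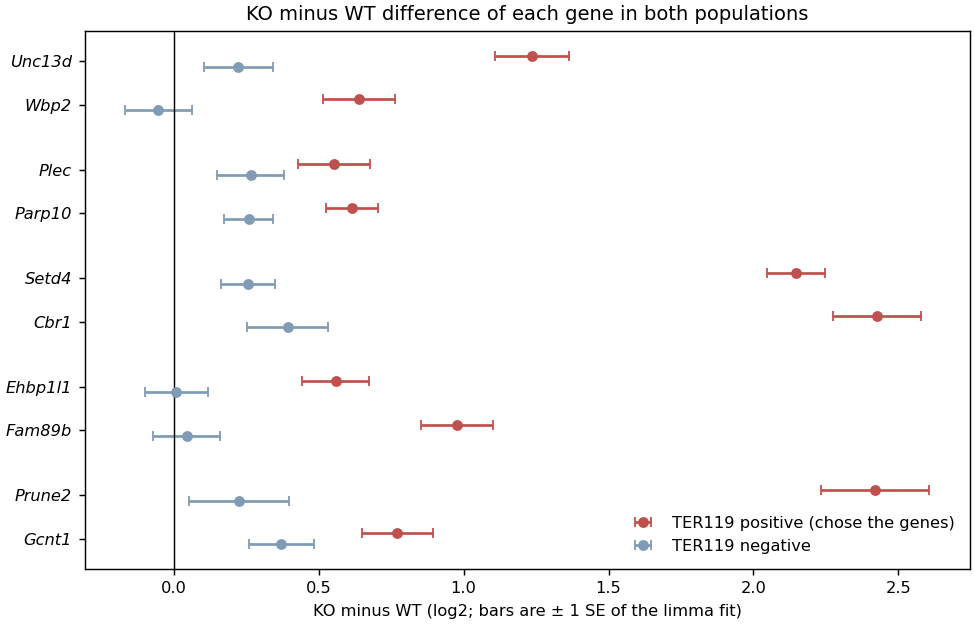
KO minus WT difference of each gene on the log2 scale, with 1 SE from the fit, in TER119+ cells (red, the values that chose the genes) and TER119- cells (blue). The blue points run from -0.05 for Wbp2 to 0.39 for Cbr1, and 9 of the 10 lie above 0.

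Between the TER119- and TER119+ fractions of WT liver the pairs did not share a direction. From TER119- to TER119+ cells 6 of the 10 genes rose, 2 fell and 2 did not pass, where 23.5% of all genes rose and 29.1% fell, 52.6% together. Markers of several cell types moved with the fraction: the median difference was 2.34 for the erythroid list (9 of 9 rose), 4.07 for hepatocyte-lineage (13 of 13 rose), 2.20 for macrophage (11 of 12 rose), 1.41 for stromal (8 of 8 rose), 1.42 for endothelial (6 of 8 rose) and -4.99 for neutrophil genes (11 of 11 fell). Their part in the members' differences was not tested. The labels name no batch, and whether both fractions were run together is not stated. This comparison shares the WT TER119+ arrays with the one that chose the genes.

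Ehbp1l1 rose by 2.39 (SE 0.11, adjusted p = 1.78e-11, limma), Wbp2 by 1.66 (SE 0.12, adjusted p = 3.35e-09, limma) and Fam89b by 1.38 (SE 0.12, adjusted p = 2.75e-08, limma). Ehbp1l1 averaged 6.49 ± 0.22 (SD, n = 4) in WT TER119- and 8.88 ± 0.13 (n = 4) in WT TER119+ arrays. Plec rose by 0.81, Unc13d by 0.54 and Parp10 by 0.30. Both genes of 3 pairs therefore rose with TER119: Unc13d-Wbp2, Plec-Parp10 and Ehbp1l1-Fam89b.

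The other 2 pairs were split. Cbr1 fell by 0.94 (SE 0.14, adjusted p = 2.51e-05, limma), from 7.22 ± 0.29 (SD, n = 4) in WT TER119- to 6.27 ± 0.20 (n = 4) in WT TER119+ arrays, whereas Setd4 did not pass (-0.01, SE 0.09, adjusted p = 0.962). Prune2 fell by 0.63 (SE 0.17, adjusted p = 0.00534, limma) and Gcnt1 differed by 0.14 (SE 0.11, adjusted p = 0.308). The fall of Prune2 was not called on its other probe set (-0.29, adjusted p = 0.115, limma). The highest group mean of all 10 genes was that of KO-labelled TER119+ cells, which the choice had placed above WT TER119+ cells. The lowest was WT TER119- for 6 genes, WT TER119+ for Cbr1, Prune2 and Setd4, and KO-labelled TER119- for Wbp2. For Setd4 the 2 WT means were 5.29 and 5.30 and do not differ beyond their spread, nor do those of Gcnt1, 7.56 and 7.70. The same holds for Wbp2, Ehbp1l1 and Fam89b in the 2 groups of TER119- cells.

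Pair mates were not each other's closest match over the 15 arrays. Likeness was the root mean square (RMS) difference between 2 genes, each centred on its own mean, and the TER119+ arrays that chose the genes are among the 15. Setd4 was the 21st closest gene to Cbr1 (RMS 0.500 on the log2 scale) of 19937 others, and Cbr1 the 47th closest to Setd4. Gcnt1 was the 49th closest to Prune2, while Prune2 ranked 14992 for Gcnt1. The mates of the other 3 pairs ranked between 502 and 3732. Over the 8 TER119- arrays alone Ehbp1l1 and Fam89b were close, ranking 10 and 16 (RMS 0.065), and the other mates ranked between 1544 and 11983.

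No member had its mate as nearest gene. The measure is not scaled, so it favours genes whose differences have a similar size. Supt3, which encodes part of a complex that acetylates histones, was nearest to Prune2 (RMS 0.340), and Klhl2, a ubiquitin ligase adaptor gene, to Cbr1 (0.279). Setd4 was nearest to 9530077C05Rik (0.205) and Unc13d to B130055M24Rik (0.157). Rtn4, which encodes the membrane-shaping protein Nogo, was nearest to both Parp10 (0.109) and Gcnt1 (0.152). Kctd20 was nearest to Ehbp1l1 (0.128), Clcn6 to Plec (0.159), Dok4 to Wbp2 (0.182) and Mapk8ip3 to Fam89b (0.211). In TER119+ cells KO minus WT was 2.84 for Supt3, 2.39 for 9530077C05Rik, 2.17 for Klhl2 and 1.27 for B130055M24Rik. For the other nearest genes it ran from 0.51 to 0.57.

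Relatives and known partners of the 10 proteins were looked at as well. Of 97 such genes measured, 1 rose and 1 fell in KO-labelled TER119+ cells, where 0.903% of all genes rose and 0.115% fell, and their median difference was -0.014. Under 8 other settings 4 to 6 of the 97 were called, among them the fit without WT TER119+ replicate 4 (4 genes). B3gnt3 and Galnt1, the genes that passed, belonged to the enzymes and carriers of O-linked sugars around Gcnt1, where 13 of 15 did not pass. B3gnt3, which extends core sugar chains, rose by 1.88 (SE 0.18, adjusted p = 9.08e-06, limma), to 8.59 ± 0.10 (SD, n = 3) from 6.72 ± 0.18 (n = 4). Galnt1, an enzyme that places the first sugar of O-linked chains, fell by 0.70 (SE 0.12, adjusted p = 0.00443, limma), to 9.997 ± 0.01 (n = 3) from 10.69 ± 0.08 (n = 4).

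No other group held a call in TER119+ cells. Among 13 granule release genes related to Unc13d the smallest p was that of Rab27b (-0.80, adjusted p = 0.701), and among 15 PARP family genes that of Parp9 (0.21, adjusted p = 1). Of the 8 carbonyl and aldo-keto reductases Akr1b8 came nearest (0.88, SE 0.20, adjusted p = 0.0523, limma), and of the 9 plakins and plectin partners Vim, the vimentin gene (0.64, SE 0.15, adjusted p = 0.0544, limma). Setd3 differed by 0.48 (adjusted p = 0.671) among 11 SET-domain genes. Yap1 (0.34), Rab8b (0.27), Arhgap1 (0.29) and Cdc42bpa (-0.13) had the smallest p in the groups around Wbp2, Ehbp1l1, Prune2 and Fam89b. In TER119- cells 0 of the 97 passed (limma), with a median of 0.052.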

How the data were processed

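RNA of 15 samples was measured on Affymetrix MoGene 1.0 ST arrays, 1 sample an array. The deposited values are log2 intensities per probe set, made by the authors with RMA (background correction, quantile normalization and summary over probes) and Partek, per the submitters' processing notes. Their versions are not given in those notes. Values ran from 2.91 to 14.26, and precision is limited by how many arrays there are. Of 35399 probe sets, 21789 had 1 gene symbol, 1621 had several and 11989 were unlisted; the probe set of highest mean was kept for each of 19938 genes. A mean per group was fitted to all 15 arrays with limma 3.58.1 in R 4.3.3 (eBayes, 2-sided, Benjamini-Hochberg over all genes, threshold 0.05). The fit was tested on simulated data. Named were the 10 genes, called flanking and companion genes, the direct neighbours, the companion with the smallest p per group, the nearest gene by likeness and reference genes. Trpm6 and the pairs of the genome-wide count were named after their values were seen. The members and lists were chosen with earlier results of these data known. Alternatives covered normalization, filters, probe set choice, the replicate block, covariates and each array left out.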

Additional observations from a re-analysis of the deposited data

Results flagged for a closer look

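Among 30 groups of 4 arrays examined for the 10 genes, 2 had an array far from the other 3, and chance flags about 1 in 20 such groups. Unc13d in KO-labelled TER119- replicate 4 was at 5.47 while the other arrays of its group were between 5.81 and 5.86, a gap of 0.878 of the group's range. Ehbp1l1 in KO-labelled TER119- replicate 1 was at 6.38 while the others were between 6.52 and 6.54, a gap of 0.891 of the range. The value above which an array was singled out is 0.829.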

How the results depend on the processing

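The 10 genes kept the direction of their KO minus WT difference in TER119+ cells under every setting run, except Prune2 on its other probe set (-0.05). With 1 array left out at a time, 7 to 10 of the 10 were called there, 0 to 0 in TER119- cells and 8 to 8 between WT populations; 0 to 1 flanking genes and 2 to 4 companion genes were called. Over all genes the calls, 203, 17 and 10486 in the main analysis, ran from 148 to 226, 8 to 24 and 9647 to 10934; the fewest in TER119+ cells came without KO TER119+ replicate 3. Fitting only the arrays compared gave 350 calls in TER119+ cells, 4 in TER119- cells and 6 companion genes. Leaving out 3 TER119- arrays, a choice made after seeing the data, gave 323, 8 and 4. TER119- calls were 11 when adjusted over all probe sets, 7 with sex, 10 with hepatocyte markers and 6 with erythroid markers as covariate (the last chosen after seeing the data). Companion calls were 4 with either marker covariate, with the filter on dim genes and with the trend and robust options. The WT comparison gave 16800 calls over all probe sets and 6925 with a 1.5-fold minimum. With 10 flanking genes on each side, 2 were called. In TER119- cells, where no member passed, leaving out 1 array gave Wbp2 -0.136 to 0.016, Ehbp1l1 -0.095 to 0.083, Fam89b -0.054 to 0.125 and Prune2 0.068 to 0.389. Prune2 turned to -0.092 on its other probe set. Ehbp1l1 turned to -0.063 after a second quantile normalization, -0.057 with hepatocyte and -0.139 with erythroid markers, -0.145 without the 3 arrays and -0.001, -0.005 or -0.007 without KO TER119- replicate 2, 3 or 4. Fam89b turned to -0.059, -0.146 and -0.105 with those markers and without the 3 arrays. Both turned without WT TER119- replicate 4, and Wbp2 without KO TER119- replicate 3 (0.008) or WT TER119- replicate 1 (0.016) or 2 (0.012). Where no construction shows it, the cause was not tested.

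With the replicate number as a block, 171 genes were called in TER119+ cells, 10 in TER119- cells and 10743 between WT populations, with 8, 0 and 8 members, 1 flanking gene and 4 companion genes; Plec (0.61, adjusted p = 0.111, limma) and Ehbp1l1 (0.50, adjusted p = 0.16, limma) were the members not called in TER119+ cells. Same-numbered arrays did not all deviate together (correlations from -0.22 to 0.25 in TER119+ and from -0.38 to 0.65 in TER119- cells). Of the 15 arrays, 3 correlated best with their own number. Each had the 3 or 4 arrays of the other genotype in its population to match, and WT TER119+ replicate 4 had no same-numbered one. Whether same-numbered samples belong together is not stated in the labels and was not tested further.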
